A study of Mus musculus with 15 samples.

Results

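The VEGF system was read from 9 genes of the count table, out of 24034 gene lines kept. They were taken by symbol: the receptors Kdr, Flt1 and Flt4, the co-receptors Nrp1 and Nrp2, and the ligands Vegfa, Vegfb, Vegfc and Pgf. All 9 were found and all 9 passed the filter on low counts, among 13662 genes tested. All 15 libraries derive from mouse embryonic stem cells that carried LacZ, the gene of bacterial beta-galactosidase, under regulatory elements of the Endoglin gene Eng, whose protein assists TGF-beta receptors on endothelium and on early blood precursors. A line with the Eng promoter and the -8 kb enhancer gave 3 fractions that the labels call HEI: ENG+FDG+, ENG-FDG+ and ENG+FDG-, where ENG is the Endoglin protein and FDG is a substrate that fluoresces once the reporter enzyme splits it. A second line, with the promoter and the enhancers at -8, +7 and +9 kb, gave FLK1+ LacZ+ and FLK1+ LacZ- cells, FLK1 being the protein that Kdr encodes. There were 3 libraries per group for 5 groups, with replicate numbers 1 to 3. Since the labels name no separate cultures, p values speak only to the spread among these libraries, which may be technical. The labels give no culture days, sort gates or number of clones per line.

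VEGF ligands are secreted dimers that bind receptor tyrosine kinases on endothelial cells and their precursors. VEGFR2, the product of Kdr, carries most of the growth and survival signal and is already made by mesoderm that gives rise to blood and vessels. VEGFR1, the product of Flt1, binds VEGF-A tightly but signals weakly, and a soluble form of it acts as a decoy. VEGFR3, the product of Flt4, is the receptor of VEGF-C, and neuropilins hold ligand and receptor together. Reads per gene symbol do not separate the soluble from the membrane-bound form of VEGFR1.

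The 9 genes lie at 9 separate loci in mm10, with coordinates taken from the GENCODE M21 annotation of GRCm38, the same assembly. Kdr is at chr5:75932827-75978458 on the minus strand, Flt1 at chr5:147561604-147726011 on the minus strand, and Flt4 at chr11:49609263-49652739 on the plus strand. Nrp1 is at chr8:128358604-128503363 on the plus strand and Nrp2 at chr1:62703285-62818695 on the plus strand. Vegfa is at chr17:46016993-46032369, Vegfb at chr19:6982473-6987651 and Pgf at chr12:85166635-85177790, all on the minus strand, and Vegfc is at chr8:54077606-54187096 on the plus strand. No exon of another annotated gene overlapped theirs except the microRNA Mir1903, which shares 80 bases with Nrp1.

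The promoters of Kdr, Flt1 and Vegfa are shown because their levels did not overlap between HEI ENG+FDG+ and ENG-FDG+ cells, and that of Vegfb because its levels did. Each is 300 bases of the RefSeq sequence of GRCm38.p6, 250 before the annotated start and 50 after it, read along the gene. Kdr is chr5:75978406-75978705, Flt1 is chr5:147725962-147726261, the first of the 2 listed Vegfa starts is chr17:46032328-46032627, and Vegfb is chr19:6987602-6987901, all on the minus strand. Capitals mark the core GGAA, or TTCC on the other strand, that ETS transcription factors bind.
Kdr: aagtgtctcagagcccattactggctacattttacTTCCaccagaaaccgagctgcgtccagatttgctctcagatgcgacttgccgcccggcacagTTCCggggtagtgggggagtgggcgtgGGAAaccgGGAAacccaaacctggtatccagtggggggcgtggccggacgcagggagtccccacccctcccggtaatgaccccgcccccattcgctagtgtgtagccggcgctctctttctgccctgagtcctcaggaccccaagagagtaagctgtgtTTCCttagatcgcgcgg
Flt1: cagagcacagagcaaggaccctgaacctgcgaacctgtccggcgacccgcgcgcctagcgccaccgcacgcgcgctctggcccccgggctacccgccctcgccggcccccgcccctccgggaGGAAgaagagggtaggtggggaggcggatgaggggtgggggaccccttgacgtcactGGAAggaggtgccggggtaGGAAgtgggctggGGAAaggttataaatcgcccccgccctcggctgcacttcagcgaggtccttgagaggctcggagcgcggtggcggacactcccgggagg
Vegfa: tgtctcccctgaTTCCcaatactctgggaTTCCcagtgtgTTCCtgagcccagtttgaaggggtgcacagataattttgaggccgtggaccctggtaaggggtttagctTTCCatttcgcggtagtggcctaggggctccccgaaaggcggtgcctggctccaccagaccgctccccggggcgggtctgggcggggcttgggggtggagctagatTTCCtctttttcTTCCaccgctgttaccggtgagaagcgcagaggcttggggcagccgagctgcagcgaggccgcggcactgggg
Vegfb: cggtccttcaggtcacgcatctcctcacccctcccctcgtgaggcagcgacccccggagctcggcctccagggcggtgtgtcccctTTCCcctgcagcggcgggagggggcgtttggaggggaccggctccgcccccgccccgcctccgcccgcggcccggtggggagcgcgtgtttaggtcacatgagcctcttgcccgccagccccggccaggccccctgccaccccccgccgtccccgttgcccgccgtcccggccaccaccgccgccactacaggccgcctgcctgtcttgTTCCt
The ETS core occurred 5 times in the Kdr promoter, 4 times in that of Flt1, 6 times in that of Vegfa and 2 times in that of Vegfb. The promoter of Nrp1, whose levels overlapped like those of Vegfb, held 5, and the second listed Vegfa start (chr17:46025114-46025413) held 3. The promoters of Flt4 and Vegfc held 2 each, that of Nrp2 1, and the 2 listed Pgf starts 2 and 1. These letters are common: 96% of 32851 mouse promoters of the same length held at least 1 core on either strand, with a median of 3. As many as 6 were held by 15.7% of promoters and as many as 5 by 28.6%. The TATA box TATAAA, found on either strand in 13.6% of promoters, occurred once in the Flt1 window and in none of the other 3. The hypoxia response element core ACGTG, or CACGT on the other strand, is held by 19.6% of promoters and was not among the letters of these 4 windows, while the window of the second Vegfa start held 1.

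Library totals ran between 9673396 and 16337785 counts. The 5 replicate 1 libraries stood apart: they held 12188618 to 16337785 counts, against 9673396 to 11747575 in the other 10, and 1.40 to 3.56% of their counts fell on the ribosomal RNA gene Rn45s, against 0.524 to 0.784%. Fitted with a mean per group, the biological coefficient of variation was 0.477, and it was 0.076 in replicates 2 and 3 alone. Results are therefore given also with the replicate number as a block (0.199), or in replicates 2 and 3, for the members and for the counts of list genes called. Eng itself, given as the check of the labels, had 180 to 904 CPM in ENG+FDG+ cells and 39.4 to 161 CPM in ENG-FDG+ cells. It had 184 to 962 CPM in ENG+FDG- cells, which like the ENG+FDG+ cells did not overlap with ENG-FDG+. Fitted with a mean per group, even Eng did not pass the edgeR test between these fractions. ENG+FDG+ cells exceeded ENG-FDG+ cells by 2.37 ± 0.89 (log2 and SE, adjusted p = 0.372). ENG-FDG+ against ENG+FDG- cells gave -2.47 ± 0.89 (adjusted p = 0.337). With the block both differences passed (adjusted p = 2.4e-04 and 1.4e-04). Levels are CPM, that is read counts divided by library size after edgeR's TMM correction of those sizes.

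Kdr was the most abundant of the 9 per kb of exon in all 15 libraries. Exon length is that of all GENCODE M21 exons of a gene merged, 9030 bases for Kdr and 13504 for Flt1. The annotation used for counting is not given, so levels and ratios between genes are approximate. On that length-corrected scale the mean Kdr level lay between 54.7 CPM per kb in FLK1+ LacZ+ cells and 104 CPM per kb in HEI ENG+FDG- cells. The neuropilins followed: Nrp1 averaged 33.8 to 54.6 CPM per kb over the HEI groups and 23.1 to 23.4 over the FLK1+ groups, and Nrp2 averaged 31.7 to 42.7 and 25.7 to 26.7. Flt4 and Flt1 were lower, at 12.9 to 22.1 and 7.97 to 11.3 CPM per kb over the HEI groups and 6.09 to 9.69 and 2.48 to 3.78 over the FLK1+ groups. Among the ligands Vegfa averaged 21.2 to 41.9 CPM per kb in HEI groups and 12.6 to 14.1 in FLK1+ groups. Vegfb averaged 11.5 to 14.3 and 16.9 to 17.1, Vegfc 3.35 to 6.15 and 6.05 to 6.24, and Pgf under 0.5 CPM per kb in each group. In counts, Kdr had 4544 to 14696 per library, Vegfc 57 to 400 and Pgf 0 to 43, so the Pgf values rest on the fewest reads.

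**Figure D1:**
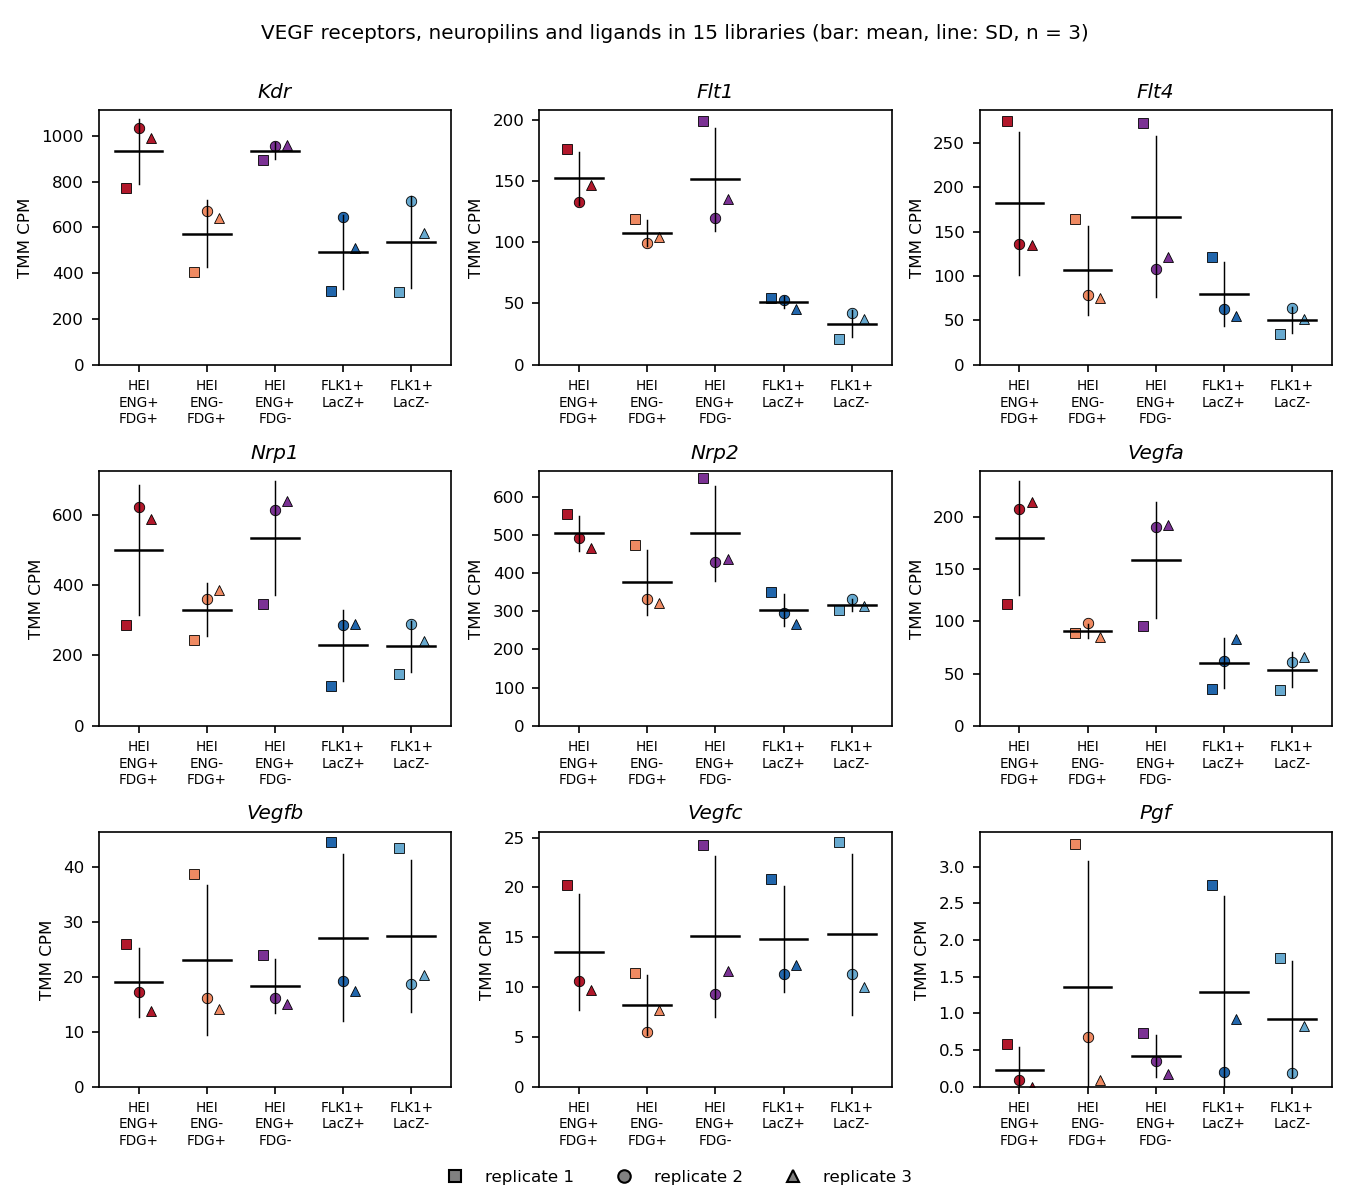
TMM-scaled CPM (vertical axes, linear and starting at 0) of the 9 genes in each of the 15 libraries, grouped by sorted fraction along the horizontal axis; marker shape gives the replicate number, bars the mean and thin lines the SD (n = 3). Kdr, Flt1 and Vegfa were higher in all 3 ENG+FDG+ libraries than in any ENG-FDG+ library, and Vegfb, Vegfc and Pgf were highest in replicate 1 of every group.

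The widest contrast set the 3 HEI groups against the 2 FLK1+ groups. All 3 receptors, both neuropilins and Vegfa were higher in the HEI groups, Flt1 by 1.71 on the log2 scale, while Vegfb, Vegfc and Pgf did not pass the test. The 6 of 9 genes that rose compare with 17.0% of all 13662 genes that did (edgeR quasi-likelihood test, Benjamini-Hochberg adjusted p below 0.05), and none of the 9 was among the 20.3% that fell. The median log2 difference was 0.62 over the 9 genes and -0.11 over all genes. Stage, cell line and enhancer set differ together in this contrast and cannot be told apart, and the sort on FLK1 defines only the FLK1+ groups. Where stages are named below, with genes that rose or fell, this contrast between lines is meant, not a change followed over time. Because these are bulk samples, fewer cells of a type and less RNA per cell cannot be told apart either.

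Kdr had 770, 1036 and 991 CPM in the ENG+FDG+ libraries of replicates 1, 2 and 3, 404, 671 and 640 CPM in ENG-FDG+ cells, and 892, 954 and 960 CPM in ENG+FDG- cells. FLK1+ LacZ+ libraries held 324, 647 and 510 CPM and FLK1+ LacZ- libraries 319, 715 and 574 CPM. The ENG-FDG+ levels lay inside the range of the FLK1+ cells, and both ENG+ fractions lay above it. Over the groups Kdr was higher in HEI by 0.62 ± 0.22 (log2 and SE, adjusted p = 0.0393), in 3 of 3 replicate numbers, a share not given for all genes. This call was the least secure: with 1 library left out the adjusted p ran between 0.0245 and 0.0854. It was kept in 4 of 15 such fits, those without FLK1+ LacZ+ replicate 2, FLK1+ LacZ- replicate 2, ENG+FDG+ replicate 1 or ENG-FDG+ replicate 1, and was lost without any other single library. With the replicate block the difference was 0.67 ± 0.10 (adjusted p = 5.9e-05).

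Flt1, the high-affinity receptor with weak kinase output, changed most. It had 176, 133 and 147 CPM in ENG+FDG+ cells, 119, 99.1 and 104 CPM in ENG-FDG+ cells and 199, 120 and 135 CPM in ENG+FDG- cells. FLK1+ LacZ+ cells had 54.5, 53.1 and 45.6 CPM and LacZ- cells 21.0, 42.1 and 37.5 CPM. The lowest HEI library lay above the highest FLK1+ library, and the log2 difference was 1.71 ± 0.18 (adjusted p = 1.3e-05), between 1.58 and 1.81 with any library left out. Flt1 and Vegfa were the 2 members whose HEI and FLK1+ libraries did not overlap, as was true, in the same direction, of 8.58% of all genes.

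Flt4 had 275, 136 and 135 CPM in ENG+FDG+ cells, 164, 79.0 and 75.6 CPM in ENG-FDG+ cells and 272, 108 and 121 CPM in ENG+FDG- cells. In FLK1+ LacZ+ cells it had 121, 63.2 and 54.8 CPM, and in LacZ- cells 34.9, 63.9 and 51.5 CPM. The replicate 1 libraries were highest in 4 of the 5 groups, and FLK1+ LacZ+ replicate 1 overlapped with the HEI range. The log2 difference between stages was 1.22 ± 0.32 (adjusted p = 0.00802).

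The neuropilins rose by different amounts. Nrp1, which binds VEGF-A and class 3 semaphorins, had 287, 624 and 590 CPM in ENG+FDG+ cells, 245, 360 and 386 CPM in ENG-FDG+ cells and 348, 614 and 641 CPM in ENG+FDG- cells. FLK1+ LacZ+ cells had 112, 286 and 290 CPM and LacZ- cells 147, 290 and 242 CPM. Within each replicate number every HEI library exceeded both FLK1+ libraries, although replicate 1 was lowest in all 5 groups, and the log2 difference was 0.97 ± 0.28 (adjusted p = 0.0161). Nrp2, the usual partner of VEGFR3 in lymphatic vessels, had 556, 492 and 467 CPM in ENG+FDG+ cells, 475, 332 and 321 CPM in ENG-FDG+ cells and 649, 429 and 438 CPM in ENG+FDG- cells. It had 350, 297 and 267 CPM in FLK1+ LacZ+ cells and 303, 333 and 313 CPM in LacZ- cells. Its log2 difference was 0.56 ± 0.15 (adjusted p = 0.0117), and ENG-FDG+ replicates 2 and 3 overlapped with the FLK1+ libraries.

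Of the ligands only Vegfa, the main driver of endothelial growth, was higher in the HEI groups than in the FLK1+ groups. It had 117, 208 and 214 CPM in ENG+FDG+ cells, 88.9, 98.4 and 85.0 CPM in ENG-FDG+ cells and 95.1, 190 and 192 CPM in ENG+FDG- cells. FLK1+ LacZ+ libraries held 35.3, 62.3 and 83.2 CPM and LacZ- libraries 34.4, 61.0 and 66.0 CPM, all below every HEI library. The log2 difference was 1.27 ± 0.25 (adjusted p = 0.0015), between 1.13 and 1.43 with any library left out.

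Vegfb, a ligand of VEGFR1 linked to fatty acid uptake and heart muscle, had its highest mean levels in the FLK1+ groups but did not pass the test. It had 26.0, 17.3 and 13.8 CPM in ENG+FDG+ cells, 38.7, 16.1 and 14.2 CPM in ENG-FDG+ cells and 24.0, 16.1 and 15 CPM in ENG+FDG- cells, against 44.6, 19.3 and 17.4 CPM in FLK1+ LacZ+ cells and 43.4, 18.7 and 20.3 CPM in LacZ- cells. Its log2 difference was -0.45 ± 0.32 (adjusted p = 0.3), and with the replicate block -0.40 ± 0.11 (adjusted p = 0.00618). Vegfc, the lymphatic ligand of VEGFR3, had 20.2, 10.6 and 9.74 CPM in ENG+FDG+ cells, 11.4, 5.48 and 7.75 CPM in ENG-FDG+ cells and 24.3, 9.34 and 11.6 CPM in ENG+FDG- cells, against 20.9, 11.3 and 12.2 CPM in FLK1+ LacZ+ cells and 24.6, 11.3 and 10 CPM in LacZ- cells. It differed by -0.34 ± 0.31 (adjusted p = 0.429), and by -0.34 ± 0.12 with the block (adjusted p = 0.0233). Those are the 2 members lower under the block, where 37.4% of all genes were. In replicates 2 and 3 neither passed, at -0.20 ± 0.10 for Vegfb (adjusted p = 0.071) and -0.23 ± 0.13 for Vegfc (adjusted p = 0.116).

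Pgf, placental growth factor, a VEGFR1 ligand, was at the edge of detection. It had 9, 1 and 0 counts in ENG+FDG+ libraries, 39, 7 and 1 in ENG-FDG+ libraries and 12, 4 and 2 in ENG+FDG- libraries, against 43, 2 and 9 in FLK1+ LacZ+ libraries and 25, 2 and 9 in LacZ- libraries. The count of 0 allows up to 3 counts, or 0.298 CPM, in that library, a limit that covers counting error only. No Pgf difference passed a test, and the stage difference was -1.06 ± 0.79 (adjusted p = 0.327).

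**Figure D2:**
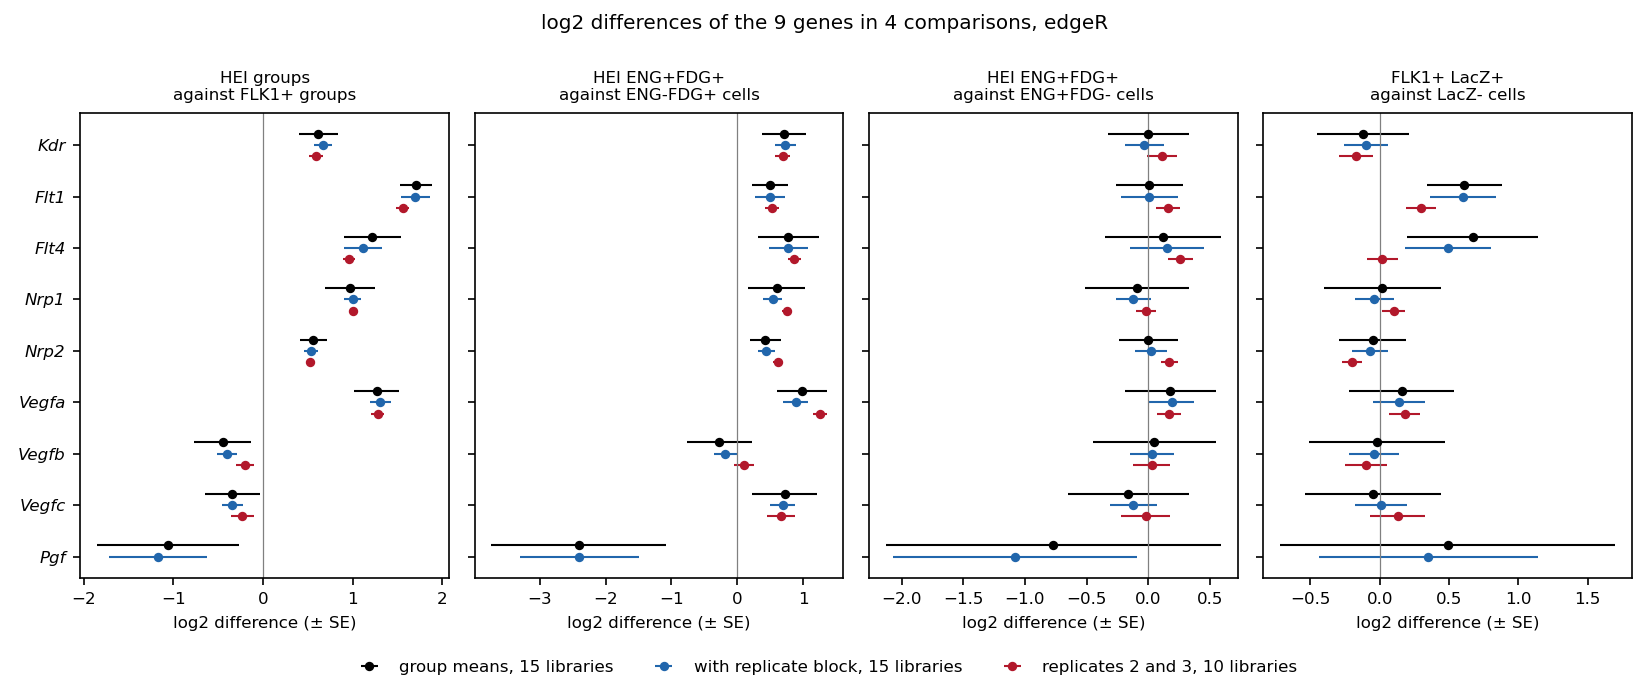
log2 differences (points) with SE (lines) of the 9 genes in 4 comparisons, from edgeR with group means in 15 libraries (black), with a replicate block (blue) and in replicates 2 and 3 alone (red); Pgf did not pass the filter in replicates 2 and 3. The 3 receptors, both neuropilins and Vegfa lie right of 0 in the HEI against FLK1+ and the ENG+FDG+ against ENG-FDG+ panels, and the FDG panel lies near 0 except for Pgf.

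Cell-type markers moved with the stage contrast. The summed level of 12 endothelial markers was 2067 to 7108 CPM in HEI libraries and 115 to 588 CPM in FLK1+ libraries, with none at 0 in any group, and 12 of 12 were higher. Of 9 primitive streak and pluripotency markers all 9 were lower, with sums of 2.29 to 14.6 CPM in HEI and 665 to 2447 CPM in FLK1+ libraries, and Mesp1 was at 0 in all 3 HEI groups. Of 11 early haematopoietic markers tested 5 were higher and 3 lower in HEI, Runx1 among the lower. For smooth muscle and mesenchyme it was 5 and 3 of 9, for cardiac markers 1 and 4 of 8, and for erythroid markers 3 and 1 of 6. The part of these markers in the VEGF gene differences was not tested.

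Ratios within a library describe the receptor balance without the scaling between libraries. Per kb of exon, Flt1 stood at 8.59 to 15.2% of Kdr in ENG+FDG+ cells, 9.87 to 19.8% in ENG-FDG+ cells and 8.38 to 14.9% in ENG+FDG- cells, against 5.49 to 11.2% in FLK1+ LacZ+ cells and 3.93 to 4.40% in LacZ- cells. Within each replicate number the order was the same: ENG-FDG+ highest, then ENG+FDG+, ENG+FDG-, LacZ+ and LacZ-. In replicate 1 the 5 values were 19.8, 15.2, 14.9, 11.2 and 4.40%, and in replicate 2 they were 9.87, 8.59, 8.38, 5.49 and 3.93%. The ENG-FDG+ cells thus had the highest Flt1 share although both genes had lower levels there than in the ENG+ fractions. Flt4 stood at 33.4 to 44.6% of Kdr in the replicate 1 HEI libraries, against 41.0% and 12% in the LacZ+ and LacZ- libraries of replicate 1. It stood at 12.5 to 14.9% in replicates 2 and 3 of HEI and 9.79 to 11.8% in those of FLK1+ libraries, so the groups overlapped in replicate 1 alone.

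The neuropilin and ligand ratios split by replicate number. Nrp1 over Nrp2, per kb, was 0.624 to 0.649 in the replicate 1 HEI libraries and 1.31 to 1.77 in the other HEI libraries. In FLK1+ libraries it was 0.386 and 0.585 in replicate 1 and 0.938 to 1.31 in the others. Which neuropilin was more abundant therefore depended on the replicate number in all 3 HEI groups. Vegfa over Vegfb, per kb, had a median of 2.29 in HEI libraries (0.861 to 5.79) and of 1.21 in FLK1+ libraries (0.296 to 1.79), with every HEI library above both FLK1+ libraries of its replicate number. Vegfb was 1.54 to 2.54 times higher in replicate 1 than in the mean of replicates 2 and 3 in all 5 groups, Vegfc 1.72 to 2.31 times and Pgf 2.13 to 7.57 times. Kdr, Nrp1 and Vegfa were lower in replicate 1 in all 5 groups, Nrp1 at 0.388 to 0.657 of the level in the other replicates.

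**Figure D3:**
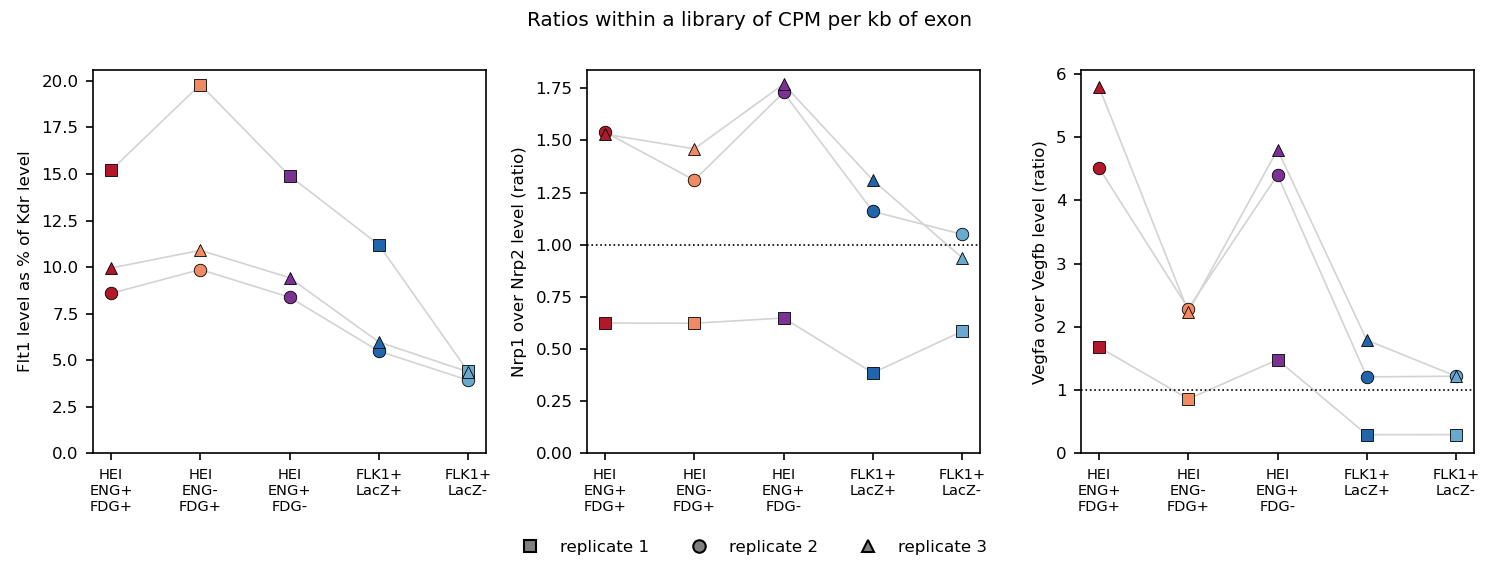
Ratios of CPM per kb of exon within each library (vertical axes, linear, starting at 0): Flt1 as a percentage of Kdr, Nrp1 over Nrp2 and Vegfa over Vegfb, by sorted fraction, with grey lines joining libraries of 1 replicate number and a dotted line at a ratio of 1. Flt1 is a larger share of Kdr in every HEI library than in the FLK1+ libraries of the same number, and replicate 1 lies below 1 for Nrp1 over Nrp2 in all 5 groups.

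Within the HEI cells, the ENG+FDG+ fraction was set against the ENG-FDG+ fraction, which shares the active reporter but was sorted as negative for the Endoglin protein. Vegfa was higher by 0.98 ± 0.38 on the log2 scale, Flt4 by 0.78 ± 0.47, Vegfc by 0.72 ± 0.49, Kdr by 0.71 ± 0.33, Nrp1 by 0.60 ± 0.43, Flt1 by 0.50 ± 0.27 and Nrp2 by 0.43 ± 0.24. None of these passed the edgeR test with group means, where the adjusted p was between 0.388 for Vegfa and 0.817 for Nrp1. That count of 0 of 9 stands beside 0.278% of all genes called, 38 in number, and 1288 at an unadjusted p under 0.05, with 1 member, Vegfa, among them. DESeq2 called none of the 9 either, beside 441 of the 13662 genes. Eng, the gene of the sort marker, did not pass with group means either (edgeR adjusted p = 0.372).

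The direction was steady across replicates. All 7 of these genes were higher in ENG+FDG+ cells in 3 of 3 same-numbered pairs, as were 21.8% of all genes, and for Kdr, Flt1 and Vegfa the groups did not overlap, as for 8.45% of all genes. With the replicate block 5 of 9 were called higher, against 5.10% of all genes: Vegfa at 0.89 ± 0.19 (adjusted p = 0.00833), Kdr at 0.73 ± 0.16 (adjusted p = 0.0106), Nrp1 at 0.54 ± 0.14 (adjusted p = 0.0228), Vegfc at 0.69 ± 0.19 (adjusted p = 0.0357) and Nrp2 at 0.44 ± 0.13 (adjusted p = 0.039). Flt1 and Flt4 did not pass there, at adjusted p = 0.178 and 0.117. In replicates 2 and 3 alone, 7 of the 8 members tested were called higher, against 14.7% of all genes, Vegfa by 1.26 ± 0.10 (adjusted p = 8.9e-08). The pair differences of Vegfa were 0.39, 1.08 and 1.33 in replicates 1, 2 and 3, so replicate 1 showed the smallest, while for Kdr it showed the largest at 0.93, against 0.63 in both others.

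Vegfb and Pgf did not share that direction. Vegfb differed by -0.27 ± 0.50 with pair differences of -0.57, 0.11 and -0.04, so its sign was set by replicate 1. Pgf was lower in ENG+FDG+ cells in 3 of 3 pairs, by -2.41 ± 1.33 (adjusted p = 0.67), on counts of 0 to 39. How many of all genes were lower in all pairs is not given, so these Pgf signs are a description only.

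The ENG-FDG+ cells were also set against the ENG+FDG- cells, which share the Endoglin protein with the ENG+FDG+ cells but not the active reporter. This comparison uses the same ENG-FDG+ libraries, so the 2 are not independent. Here too 0 of 9 passed with group means, beside 0.351% of all genes, with 1309 genes and 0 members at an unadjusted p under 0.05. DESeq2 called 0 members, beside 445 of the 13662 genes. Nor did Eng pass with group means (edgeR adjusted p = 0.337). The log2 difference, ENG-FDG+ minus ENG+FDG-, was -0.88 ± 0.49 for Vegfc, -0.81 ± 0.38 for Vegfa, -0.71 ± 0.33 for Kdr, -0.69 ± 0.43 for Nrp1, -0.65 ± 0.47 for Flt4, -0.49 ± 0.27 for Flt1 and -0.43 ± 0.24 for Nrp2. With the block 5 of 9 were lower in ENG-FDG+ cells, against 5.65% of all genes: Nrp1 (adjusted p = 0.00811), Kdr (adjusted p = 0.00885), Vegfc (adjusted p = 0.0165), Vegfa (adjusted p = 0.0266) and Nrp2 (adjusted p = 0.0446). In replicates 2 and 3, 7 of the 8 members tested were lower, against 13.7% of all genes. Kdr and Flt1 were the members whose groups did not overlap, as for 8.38% of all genes, while Vegfa overlapped because ENG+FDG- replicate 1 had 95.1 CPM and ENG-FDG+ replicate 2 had 98.4 CPM.

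Other cell types' markers differed between these fractions. The 12 endothelial markers summed to 3804 to 6398 CPM in ENG+FDG+ cells, 2067 to 2450 CPM in ENG-FDG+ cells and 3699 to 7108 CPM in ENG+FDG- cells. One of the 12 is Eng, the gene of the sort marker, and the other 11 summed to 3624 to 5494 CPM in ENG+FDG+ cells, 2022 to 2289 CPM in ENG-FDG+ cells and 3516 to 6146 CPM in ENG+FDG- cells. The fitted ENG+FDG+ minus ENG-FDG+ difference was positive for all 12, and Clec14a passed the test (8 of 12, Eng among them, with the block). The 12 early haematopoietic markers summed to 222 to 326 CPM in ENG+FDG+ cells, 706 to 780 CPM in ENG-FDG+ cells and 270 to 314 CPM in ENG+FDG- cells. With the block, where 5.75% of all genes were lower in ENG+FDG+ than in ENG-FDG+ cells, 8 of the 11 tested were. With group means Runx1 alone was lower in ENG+FDG+ than in ENG-FDG+ cells. Without ENG+FDG+ replicate 2, 0 genes passed in that comparison, and so none of the markers. The 10 smooth muscle and mesenchyme markers summed to 121 to 578 CPM in ENG+FDG+ cells, 353 to 5165 CPM in ENG-FDG+ cells and 266 to 473 CPM in ENG+FDG- cells, with Lum at 0 in both ENG+ fractions. Of them Postn passed with group means, higher in ENG-FDG+ cells than in either ENG+ fraction. With the block 7 of the 9 tested were lower in ENG+FDG+ than in ENG-FDG+ cells. The 10 erythroid markers summed to 12.9 to 56.3 CPM in ENG+FDG+ cells, 40.4 to 373 CPM in ENG-FDG+ cells and 12.1 to 72.3 CPM in ENG+FDG- cells, with Hba-a1 at 0 in all 3. Gata1, a master regulator of red cell genes, was higher in ENG-FDG+ than in ENG+FDG- cells (adjusted p = 0.0252). That call was lost without ENG-FDG+ replicate 3 or ENG+FDG- replicate 2, where 0 genes passed in this comparison. With the block 4 of the 6 erythroid markers tested were lower in ENG+FDG+ than in ENG-FDG+ cells. The 8 cardiac markers summed to 15 to 47.7 CPM in ENG+FDG+ cells, 20.6 to 136 CPM in ENG-FDG+ cells and 16.8 to 46.9 CPM in ENG+FDG- cells. They did not share 1 direction: the fitted ENG+FDG+ minus ENG-FDG+ difference was positive for 5 of 8, with a median of 0.20. Cardiac actin Actc1, lower in ENG+FDG+ than in ENG-FDG+ cells (adjusted p = 0.0442), was the only 1 of them to pass. The part of these marker genes in the VEGF gene differences was not tested.

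The activity of the -8 kb reporter by itself, ENG+FDG+ against ENG+FDG- cells, did not separate the VEGF genes. The test called 0 of 9 members and 0% of all genes, with 39 genes and 0 members at an unadjusted p under 0.05, and DESeq2 called no gene at all. Kdr averaged 932 ± 142 CPM in ENG+FDG+ cells and 935 ± 37.7 CPM in ENG+FDG- cells (SD, n = 3 each). Nrp2 averaged 505 ± 45.7 and 505 ± 125 CPM, and Flt1 152 ± 21.6 and 151 ± 42.0 CPM, in the same order. Without Pgf, at -0.77 ± 1.36, the 8 log2 differences lay between -0.16 for Vegfc and 0.18 for Vegfa, with SEs of 0.24 to 0.50. The SEs were 0.13 to 0.30 with the block and 0.07 to 0.20 in replicates 2 and 3, and no member passed there either. The differences in replicates 2 and 3 lay between -0.02 for Nrp1 and Vegfc and 0.26 for Flt4. Vegfa and Flt4 were higher in 3 of 3 pairs, Vegfa by 0.29, 0.14 and 0.15 and Flt4 by 0.02, 0.32 and 0.15. Pgf was lower in all 3, by -0.25, -0.99 and -1.03. The share of all genes with 1 direction in all pairs is not given for this comparison, so these signs are a description only.

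In the FLK1+ cells, LacZ+ against LacZ- cells compares activity of the reporter with 3 enhancers. The test again called 0 of 9 members and 0% of all genes, with 170 genes at an unadjusted p under 0.05, and DESeq2 called 8 genes and no member. Flt1 was the 1 member at an unadjusted p under 0.05. Its log2 difference was 0.61 ± 0.27 (edgeR adjusted p = 1), and its LacZ+ libraries lay above all LacZ- libraries, as was true of 2.44% of all genes. The pair differences were 1.37, 0.33 and 0.28, so replicate 1 contributed most. The difference was 0.30 ± 0.11 in replicates 2 and 3 (adjusted p = 0.523). In replicate 1, Flt4 showed 121 CPM in the LacZ+ library and 34.9 CPM in the LacZ- library, and pair differences of -0.02 and 0.09 in the others. The other members differed by -0.12 to 0.49 with SEs of 0.24 to 1.21. The 12 endothelial markers summed to 158 to 588 CPM in LacZ+ libraries and 115 to 172 CPM in LacZ- libraries, and the fitted differences were positive for all 12 with a median of 1.57, none passing. Of the 12, 11 were positive in replicates 2 and 3, with a median of 0.76, and Cdh5 passed. Their part in the Flt1 difference was not tested. The effect of FDG in HEI cells minus that of LacZ in FLK1+ cells passed for 0 of 9 members and 0% of all genes, with 97 genes and 0 members at an unadjusted p under 0.05. For Flt1 it was -0.60 ± 0.38 (adjusted p = 1).

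Downstream of the receptors, 38 of 39 genes of VEGF signal transduction were tested, and between stages 10 rose and 4 fell, beside 17.0% and 20.3% of all genes. With the block 21 rose and 8 fell, beside 28.8% and 37.4% of all genes, and in replicates 2 and 3 it was 23 and 9, beside 36.8% and 36.9%. Ptk2, the focal adhesion kinase, averaged 166 CPM in HEI and 73.9 CPM in FLK1+ libraries (1.16 ± 0.13, adjusted p = 1.2e-05). Prkca, the protein kinase C alpha gene, averaged 44.6 and 9.83 CPM in the same order (1.92 ± 0.24, adjusted p = 4.5e-05), and Pik3cb, a catalytic PI3-kinase subunit, 57.9 and 17.1 CPM (1.78 ± 0.23, adjusted p = 6.5e-05). Prkd1, protein kinase D1, which lies downstream of protein kinase C, fell, with 14.2 CPM in HEI and 45.4 CPM in FLK1+ libraries (-1.68 ± 0.18, adjusted p = 9.6e-06). The others that rose were Fyn, Nfatc1, Nfatc3, Nos3, Plcg1, Plcg2 and Ppp3ca, and Akt2, Braf and Map2k1 also fell. The list's median log2 difference was 0.36, beside -0.11 over all genes.

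Of 23 receptor partners and ligand-processing genes 11 rose and 4 fell (15 and 4 with the block, and in replicates 2 and 3). Ptprb, the endothelial phosphatase VE-PTP, averaged 442 CPM in HEI and 23.7 CPM in FLK1+ libraries (4.29 ± 0.20, adjusted p = 2.4e-08). Cdh5, VE-cadherin, which binds VEGFR2 at junctions, averaged 1555 and 38.1 CPM in the same order (5.65 ± 0.40, adjusted p = 5.0e-07), and Epn2, an epsin that takes part in VEGFR2 uptake, 145 and 61.4 CPM (1.15 ± 0.11, adjusted p = 6.5e-06). Ptprj, the phosphatase DEP-1, fell, with 12.4 CPM in HEI and 59.4 CPM in FLK1+ libraries (-2.47 ± 0.16, adjusted p = 2.4e-07). Adamts3, a protease that processes VEGF-C, fell as well, with Ext1 and Pcsk5. The list's median was 0.55.

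Of 20 tested genes that VEGF is known to induce, out of 22 listed, 9 rose and 2 fell, with a median of 1.22 (13 and 4 with the block, 13 and 3 of 19 in replicates 2 and 3). Icam1, a leukocyte adhesion molecule, averaged 25.6 CPM in HEI and 3.17 CPM in FLK1+ libraries (2.89 ± 0.54, adjusted p = 9.3e-04), and Adamts1, a secreted protease, 81.5 and 27.5 CPM in the same order (1.55 ± 0.28, adjusted p = 6.6e-04). Vcam1 averaged 5.04 and 0.108 CPM and Sele 1.42 and 0.0154 CPM, so their fitted differences of 5.62 and 5.92 depend on very few FLK1+ counts. Angpt2, Dll4, Nr4a2, Ptgs2 and Rcan1 rose too, and Dusp6 and Egr2 fell. Of 18 endothelial transcription factors 11 rose and 1, Etv2, fell, with a median of 2.03 (11 and 2 with the block, 13 and 3 of 17 in replicates 2 and 3). Among them Ets1 averaged 604 and 105 CPM (2.51 ± 0.23, adjusted p = 3.0e-06), Ets2 310 and 70.0 CPM (2.17 ± 0.16, adjusted p = 6.8e-07), Elk3 320 and 64.3 CPM (2.27 ± 0.20, adjusted p = 2.5e-06) and Sox17 59.3 and 5.65 CPM (3.26 ± 0.30, adjusted p = 3.6e-06), HEI first. The endothelial markers given above moved with these lists, and Cdh5 is in both.

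Of 20 hypoxia-response genes tested, 1 rose and 4 fell, with a median of -0.30 beside -0.11 over all genes, and the share that fell was near the 20.3% of all genes. With the block 4 rose, Epas1, Hif1a, Arnt and Ero1l, beside 28.8% of all genes. The 7 that fell, beside 37.4% of all genes, were Ankrd37, Bnip3, Egln3, Higd1a, Ldha, Ndrg1 and Pgk1. In replicates 2 and 3, 5 of 19 rose and 9 fell, beside 36.8% and 36.9% of all genes. The list thus rose no more often than genes in general. Vegfa is itself a known target of hypoxia-inducible factors, and the part of hypoxia in its difference was not tested. Epas1, which encodes the factor HIF-2 alpha and is high in endothelium, averaged 176 CPM in HEI and 15.4 CPM in FLK1+ libraries (3.36 ± 0.31, adjusted p = 3.6e-06). The glycolysis genes Ldha, with 636 and 1694 CPM (-1.42 ± 0.17, adjusted p = 2.7e-05), and Pgk1, with 205 and 313 CPM (-0.61 ± 0.16, adjusted p = 0.0094), fell in HEI, as did Bnip3, a mitophagy gene, with 9.19 and 35 CPM (-1.94 ± 0.39, adjusted p = 0.00172), and Egln3.

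**Figure D4:**
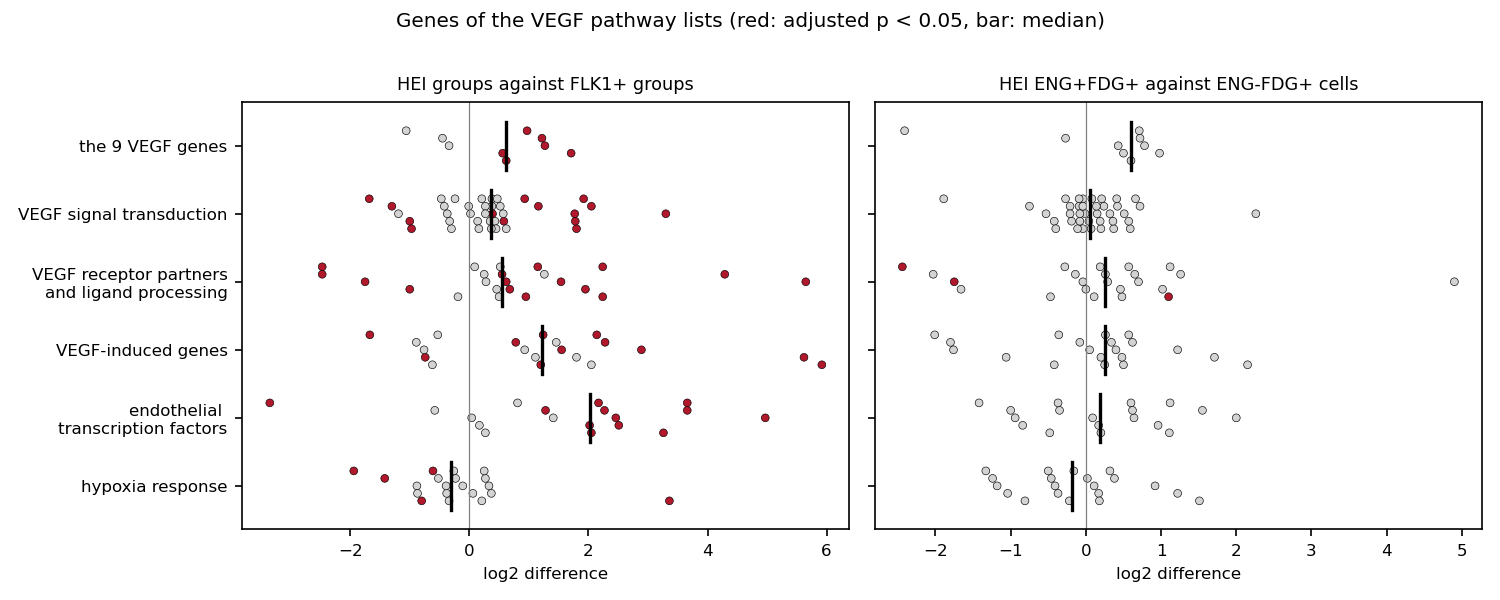
log2 differences (horizontal axes) of the tested genes of each list, 1 point per gene, red where the adjusted p was below 0.05 and grey otherwise, with a black bar at the list's median, for HEI against FLK1+ groups (left) and ENG+FDG+ against ENG-FDG+ cells (right). The medians for HEI against FLK1+ run between -0.30 for hypoxia response and 2.03 for endothelial transcription factors, and in the ENG comparison 3 genes of the partner list are red.

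Between ENG+FDG+ and ENG-FDG+ cells, 3 genes passed with group means, all in the partner list. Epn2 rose, at 175 CPM in ENG+FDG+ cells and 81.7 CPM in the ENG-FDG+ fraction (1.10 ± 0.17, adjusted p = 0.0272). Ptprj fell, with 6.85 and 23.1 CPM in the same order (-1.75 ± 0.26, adjusted p = 0.0192), as did Adamts3, with 4.58 and 24.8 CPM (-2.44 ± 0.43, adjusted p = 0.0436). The Epn2 and Adamts3 calls rest on all 6 libraries, passing in no fit with 1 of them left out. There the adjusted p ran between 0.0544 and 0.154 for Epn2 and between 0.0679 and 0.187 for Adamts3. For Ptprj it ran between 0.0353 and 0.153, passing only without ENG-FDG+ replicate 1 or 2. All 3 passed with the block and went the same way as between the stages. With the block, where 5.10% of all genes rose and 5.75% fell, 7 genes of that list rose and 3 fell, 4 and 2 of signal transduction, 2 and 1 of the VEGF-induced genes, 5 and 2 of the transcription factors, and 3 and 1 of hypoxia response. The counts in replicates 2 and 3, where 14.7% of all genes rose and 14.6% fell, were 13 and 3, 14 and 5, 6 and 1, 9 and 5, and 3 and 2 for the same lists in that order. Nos3, endothelial nitric oxide synthase, was one of the 4, at 32.9 CPM in ENG+FDG+ cells and 6.88 CPM in the ENG-FDG+ fraction (block 2.08 ± 0.39, adjusted p = 0.00483). Ets1 and Elk3, with log2 differences of 0.60 ± 0.32 and 0.96 ± 0.29 by group means, passed with the block at adjusted p = 0.0188 and 0.0063. In the FLK1+ LacZ and the HEI FDG comparisons no gene of the 5 lists passed with group means or with the block. In replicates 2 and 3, Cdh5 (1.12 ± 0.12, adjusted p = 1.9e-04) and Ptprb (0.74 ± 0.11, adjusted p = 0.0071) were higher in LacZ+ cells, as were 0.0375% of all genes. There Itgb3, an integrin that partners VEGFR2, was lower in ENG+FDG+ than in ENG+FDG- cells (-0.89 ± 0.17, adjusted p = 0.0215), as were 0.0450% of all genes. The 2 most abundant genes of each list were Rac1 and Cdc42, Cdh5 and Nedd4, Egr1 and Fos, Ets1 and Elk3, and Ldha and Slc2a1. Their log2 differences lay between -0.18 for Rac1 and 0.05 for Egr1 in ENG+FDG+ against ENG+FDG- cells. In LacZ+ against LacZ- cells they lay between -0.61 for Fos and 0.50 for Elk3, apart from Cdh5 at 2.23 ± 0.50 (edgeR adjusted p = 1, DESeq2 adjusted p = 0.00884). Without FLK1+ LacZ+ replicate 1 it was 1.29.

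Across the 15 libraries, after the mean of each replicate number was taken out of log2 CPM, the receptors moved together. Pearson's r was 0.95 for Flt1 with Flt4 and for Kdr with Nrp2, 0.96 for Nrp1 with Vegfa, and 0.84 for Kdr with Flt1. Vegfb ran against Kdr at -0.87 and Vegfc was near 0 with Vegfa at -0.14. These are descriptions, since the libraries share 5 sorted groups and 2 lines. Among 8702 named genes averaging at least 10 CPM, the 5 most like Kdr were Limch1 (r = 0.984), Rin2 (0.983), Epb4.1l2 (0.978), Mtch1 (0.975) and Nbea (0.973). Those most like Flt1 were St6galnac3 (0.988), Pls3 (0.986), Tspan18, Ptk2 and Pik3c2b (0.985 each), and those most like Vegfa were Ankrd44 (0.984), Rnf165 (0.983), Hdac7 (0.981), Apbb2 (0.975) and Dhx57 (0.973). For Pgf, on its few counts, they were Rps28 (0.871), Slirp (0.857), Nubp2 (0.848), Cox8a (0.842) and Chordc1 (0.841), among 8703 candidates.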

How the data were processed

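RNA was sequenced from 15 libraries in 5 groups of 3, grouped by their labels. Per the labels' protocols, a Nugen kit amplified the extracted RNA before Illumina library construction. The authors deposited raw read counts per gene symbol. The submitters' processing notes name STAR 2.4.0, HTSeq 0.6.1 and the mm10 build. The sources used here give no annotation, strand setting or filter. Of 24061 lines, 27 held a calendar date in place of a symbol and were left out.

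The fit was edgeR 4.0.16 (limma 3.58.1, R 4.3.3): filterByExpr, TMM factors, robust quasi-likelihood fits of group means to all 15 libraries, Benjamini-Hochberg adjustment over 13662 genes, threshold 0.05. CPM are TMM-scaled, pair differences used a prior count of 2, and each SE is the log2 difference over the root of its F statistic. The script was tested on simulated data. Alternatives were RLE factors, no filter, 5 CPM in 3 libraries, only the groups compared, DESeq2 1.42.0, each library left out, the replicate block, and replicates 2 and 3 alone.

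The replicate numbers were taken to pair libraries: deviations from group means correlated at 0.56 to 0.87 between replicate 1 libraries, 0.47 to 0.66 for replicate 2 and 0.43 to 0.68 for replicate 3 (10 pairs of groups each). Between libraries of different numbers r ran between -0.76 and 0.64 (60 pairs, median -0.56). Since replicate 1 stood apart in each group, deviations of replicates 2 and 3 can correlate whatever their numbers. These values therefore cannot show that replicate 2 pairs with 2 and 3 with 3, and the pairing stays an assumption. The members, lists, markers and comparisons were chosen with earlier results of these data known. Named are all 9 members, up to 4 genes per list with the lowest adjusted p or else the 2 with the highest level, and the 5 genes most like Kdr, Flt1, Vegfa and Pgf. Nos3, Hif1a, Arnt and Ero1l, Ptprb and Itgb3 in the reporter comparisons, the marker genes given with a p, the other list genes given without values, and Figf were added after their values were seen.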

Additional observations from a re-analysis of the deposited data

Results flagged for a closer look

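The Pgf pair differences had opposite signs in the 2 lines, although no Pgf difference passed a test. They were -0.25, -0.99 and -1.03 on the log2 scale for ENG+FDG+ minus ENG+FDG- cells, and 0.60, 0.06 and 0.12 for FLK1+ LacZ+ minus LacZ- cells. The HEI effect minus the FLK1+ effect was -1.25 ± 1.82 (edgeR, adjusted p = 1), so the difference itself did not pass its test. The counts were 9, 1 and 0 in ENG+FDG+ and 12, 4 and 2 in ENG+FDG- libraries, and 43, 2 and 9 in LacZ+ and 25, 2 and 9 in LacZ- libraries, so replicates 2 and 3 of the FLK1+ cells had equal counts, and their positive signs come from the library scaling. Without FLK1+ LacZ+ replicate 1 the fitted LacZ difference was -0.73, in place of 0.49.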

How the results depend on the processing

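The 6 members that rose between HEI and FLK1+ cells rose under every alternative run other than leaving out a library, where 5 to 6 of 9 passed (Kdr was the one lost). The replicate block, a paired fit, called 8 members there and 9039 genes, in place of 6 and 5096. It called 1482 genes and 5 members in ENG+FDG+ against ENG-FDG+ cells (38 and 0 with group means) and 1515 genes and 5 members in ENG-FDG+ against ENG+FDG- cells (48 and 0), and it changed no other member's call. Replicates 2 and 3 alone gave 9815 genes for the stages, 3899 genes and 7 members and 3605 genes and 7 members for those 2 ENG comparisons, 75 genes for FDG, 8 for LacZ and 4 for the difference of effects. For the 2 ENG comparisons, no filter gave 12 and 13 genes, only the groups compared 0 and 0, and DESeq2 441 and 445, with 8 for LacZ. The 5 CPM filter gave 65 genes in ENG+FDG+ against ENG-FDG+ cells. In that comparison Epn2 and Adamts3 did not pass without a filter (adjusted p = 0.0665 and 0.0639), and neither they nor Ptprj passed with only the groups compared (0.326, 0.326 and 0.281). The cause of these shifts was not tested. In ENG+FDG+ against ENG-FDG+ cells, leaving out ENG+FDG+ replicate 1, 2 or 3 gave 4, 0 and 3 genes, and leaving out ENG-FDG+ replicate 2 or 3 gave 21 and 4. In ENG-FDG+ against ENG+FDG- cells, leaving out ENG-FDG+ replicate 2 or 3 gave 15 and 0, and leaving out ENG+FDG- replicate 1, 2 or 3 gave 2, 0 and 5. Leaving out 1 library gave 0 to 34 genes in ENG+FDG+ against ENG-FDG+ cells, 0 to 43 in ENG-FDG+ against ENG+FDG- cells, 0 to 1 for LacZ and 4656 to 5732 for the stages.

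Signs turned only for differences that did not pass. In FLK1+ LacZ+ against LacZ- cells, Nrp1 was 0.00 with only the groups compared and -0.04 with the block, and Vegfc 0.01 with the block and 0.13 in replicates 2 and 3. In ENG+FDG+ against ENG+FDG- cells, Kdr and Nrp2, both 0.00, were 0.00 without a filter, 0.02 with 5 CPM and 0.01 with only the groups compared, Nrp2 was 0.02 with the block, and in replicates 2 and 3 they were 0.11 and 0.17. In replicates 2 and 3, Vegfb was 0.10 in ENG+FDG+ against ENG-FDG+ and -0.08 in ENG-FDG+ against ENG+FDG- cells, and the difference of effects was 0.24 for Flt4 and -0.01 for Vegfa. With 1 library left out, the LacZ difference ran between -0.39 and 0.15 for Kdr, -0.22 and 0.35 for Nrp1, -0.17 and 0.03 for Nrp2, -0.73 and 1.35 for Pgf, -0.15 and 0.43 for Vegfa, -0.58 and 0.48 for Vegfb and -0.38 and 0.48 for Vegfc. The FDG difference ran between -0.09 and 0.12 for Kdr, -0.14 and 0.25 for Flt1, -0.31 and 0.66 for Flt4, -0.33 and 0.18 for Nrp1, -0.11 and 0.22 for Nrp2, -0.09 and 0.41 for Vegfa, -0.24 and 0.29 for Vegfb and -0.57 and 0.37 for Vegfc. Vegfb ran between -0.56 and 0.34 in ENG+FDG+ against ENG-FDG+ cells and between -0.31 and 0.57 in ENG-FDG+ against ENG+FDG- cells, where Pgf ran between -0.24 and 2.32. The difference of effects ran between -0.15 and 0.38 for Kdr, -0.44 and 0.17 for Nrp1, -0.05 and 0.27 for Nrp2, -0.26 and 0.32 for Vegfa, -0.43 and 0.63 for Vegfb and -0.64 and 0.41 for Vegfc. Among list genes that did not pass, in replicates 2 and 3 the LacZ difference was -0.08 for Nedd4, 0.01 for Fos and -0.01 for Elk3, the FDG difference 0.05 for Cdh5, -0.01 for Egr1 and 0.10 for Elk3, and Egr1 was 0.00 with the block for FDG. With 1 library left out, the LacZ difference ran between -0.15 and 0.32 for Cdc42, -0.23 and 0.23 for Nedd4, -1.79 and 1.59 for Egr1, -2.39 and 1.80 for Fos and -0.10 and 0.01 for Ldha. The FDG difference ran between -0.30 and 0.06 for Cdc42, -0.28 and 0.08 for Nedd4, -0.33 and 0.27 for Cdh5, -0.78 and 0.79 for Egr1, -0.49 and 0.22 for Fos, -0.17 and 0.21 for Elk3 and -0.21 and 0.10 for Ets1. ENG+FDG+ against ENG-FDG+ ran between -0.14 and 0.02 for Rac1, -0.31 and 0.09 for Cdc42, -0.77 and 1.0 for Egr1 and -0.03 and 0.98 for Fos.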

Other observations

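The fifth VEGF ligand, Vegfd, which like VEGF-C binds VEGFR3, is listed in the table under its older symbol Figf. It had 2.02, 1.62 and 1.19 CPM in ENG+FDG+ libraries, 13.2, 0.962 and 1.19 CPM in ENG-FDG+ libraries and 0.667, 1.15 and 1.65 CPM in ENG+FDG- libraries, against 1.6, 0.400 and 1.03 CPM in FLK1+ LacZ+ libraries and 3.79, 2.4 and 0.371 CPM in LacZ- libraries. The value in ENG-FDG+ replicate 1 rests on 156 counts, against 4 to 54 in the other 14 libraries. In ENG-FDG+ against ENG+FDG- cells it differed by 2.16 ± 1.0 (adjusted p = 0.522), with pair differences of 4.01, -0.22 and -0.41, and by -0.40 ± 0.63 in replicates 2 and 3 (adjusted p = 0.696).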
